A study of Mus musculus with 6 samples.

Results

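The SoxB, SoxC and Sox15 genes encode transcription factors that bind DNA through a shared high-mobility-group (HMG) box. They are represented in the deposited expression table by 9 of its 23235 rows, picked by gene name. These genes and the gene lists below were chosen with earlier results of these data known. Comparisons with all rows are therefore descriptive. The members are Sox1, Sox2 and Sox3 of subgroup SoxB1, Sox14 and Sox21 of SoxB2, Sox15, which is the sole mouse member of SoxG, and Sox4, Sox11 and Sox12 of SoxC. RNA sequencing compared cells of one mouse embryonic stem cell line, E14Tg2a, at passages 37 to 40 in both groups. The first group was kept pluripotent with Leukemia Inhibitory Factor (LIF) and is called ESC. The second was grown as LIF-free monolayers with 1 µM Retinoic Acid (RA) for 48 h, which directs the cells towards neurons, and is called NC, for neuronal cells. Each group has 3 replicate samples, with RNA combined from 2 culture plates per replicate, but the table gives 1 pooled FPKM (a fragment count divided by transcript length in kilobases and by library size) per gene and condition. The table therefore gives no SD or replicate spread for any value. The p-values of the authors' own comparison were not used, and a difference between conditions is described by its size alone.

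SoxB1 proteins are activators that keep progenitor cells uncommitted. Sox2 pairs with the POU factor Oct4, encoded by Pou5f1, on enhancers of pluripotency genes, and Sox1, Sox2 and Sox3 together mark neural progenitors, Sox1 being among the earliest marks of neural induction. SoxB2 proteins act as repressors on the same kind of DNA site and promote the exit from the progenitor state, SoxC proteins act later and switch on genes of differentiating neurons, and Sox15 is present in ESCs and is known from muscle precursors and placental giant cells.

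The relation between the subgroups is visible in the DNA that encodes the HMG box. A stretch of 60 coding bases is shown for all 9 members because the subgroup differences that order the results can be read from it directly. The stretch is the in-frame part of Sox2 with the best mean identity over the other members, and capitals mark the bases that differ from Sox2. The sequences are from the mouse reference genome GRCm38, 5′ to 3′ on the coding strand.
Sox1: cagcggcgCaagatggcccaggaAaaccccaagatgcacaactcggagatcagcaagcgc
Sox2: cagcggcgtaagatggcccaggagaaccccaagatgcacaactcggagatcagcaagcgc
Sox3: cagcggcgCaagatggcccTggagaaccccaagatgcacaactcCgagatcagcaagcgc
Sox14: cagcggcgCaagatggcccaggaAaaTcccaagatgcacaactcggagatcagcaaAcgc
Sox21: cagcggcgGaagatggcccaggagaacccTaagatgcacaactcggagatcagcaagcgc
Sox15: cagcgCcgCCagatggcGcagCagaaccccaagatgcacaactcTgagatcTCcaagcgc
Sox4: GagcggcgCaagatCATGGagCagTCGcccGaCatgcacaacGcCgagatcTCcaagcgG
Sox11: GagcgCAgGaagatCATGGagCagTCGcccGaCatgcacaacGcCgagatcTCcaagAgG
Sox12: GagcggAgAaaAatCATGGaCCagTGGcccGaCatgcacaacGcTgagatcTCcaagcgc
The Sox2 stretch lies at chr3:34650584-34650643 on the plus strand and covers codons 57 to 76. Identity with Sox2 was 96.7% for Sox1, 95% for Sox3, 93.3% for Sox14 and 96.7% for Sox21, so that SoxB1 and SoxB2 are not separated by these bases. Sox15 stood between the subgroups with 86.7%. The SoxC members were at 70.0% for Sox4, 65.0% for Sox11 and 66.7% for Sox12, and at 93.3% between Sox4 and Sox11. Translated by codon, Sox4 and Sox11 gave the same 20 of 20 residues. No stretch of 50 identical bases was shared between the transcripts of any pair of members.

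**Figure D1:**
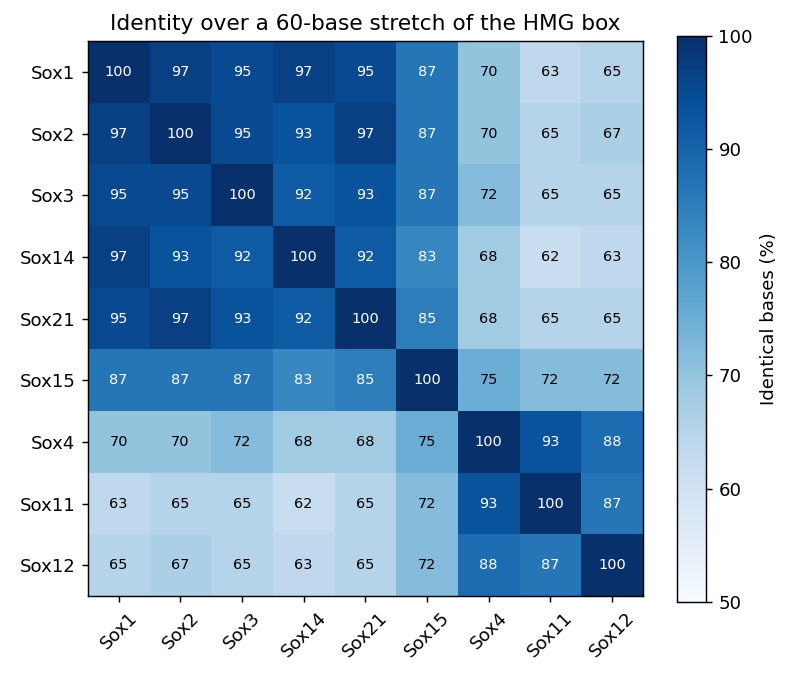
Percent of identical bases between each pair of the 9 Sox genes over the 60-base stretch of the HMG box (rows and columns are genes, shading is percent identity). Sox1, Sox2, Sox3, Sox14 and Sox21 form one dark block, Sox4, Sox11 and Sox12 a second one, and Sox15 lies closer to the first, at 86.7% with Sox2.

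Library checks come first, since the levels rest on them. The depth of single libraries is not given. Depth per column was read from the lowest values of single-transcript genes, as the fullest bin in a lower and a higher fixed range. The medians of these bins are called steps. They put 1 fragment per kilobase at 0.012 or 0.0138 FPKM in the ESC column and 0.00715 or 0.0136 FPKM in the NC column. The bins held 39 and 69 of 211 low values in the ESC column, and 124 and 37 of 287 in the NC column. Which step stands for 1 fragment was not tested. All 6 ESC markers (Pou5f1, Nanog, Zfp42, Esrrb, Tdgf1 and Dppa5a) were at least 2-fold lower in NCs, and their summed level went from 5659 to 858 FPKM. Neuron markers did not follow the name of the NC group. Of 8 such genes, 7 had a lower value in NCs than in ESCs. Among the 5 with a mean FPKM of at least 1, 3 were at least 2-fold lower, against 9.93% of all rows with such a mean. The summed level of the 8 genes was 49.64 FPKM in ESCs and 14.3 in NCs. NC is accordingly used here as the name of the RA-treated group. Primitive endoderm markers, which include Sox7 and Sox17, were higher in NCs for 7 of 7 genes, with a summed level of 16.91 FPKM in ESCs and 39.35 in NCs. Among the 6 with a mean FPKM of at least 1, 5 were at least 2-fold higher, against 11.1% of all such rows. Gata4 was only 1.12-fold higher, and Afp was at 0.01609 and 0.08711 FPKM. Mesoderm markers were low in both groups, at 3.057 and 2.069 FPKM summed over 5 genes. Trophoblast markers summed to 5.429 and 7.48 FPKM over 5 genes, with Prl3d1 listed at 0 in both columns. Muscle precursor markers summed to 0.2814 and 0.3493 FPKM over 3 genes, and glia and neural crest markers to 6.257 and 3.065 FPKM over 4 genes. Of these 4 genes 2 were higher and 2 lower in NCs, with Foxd3 going from 4.7 to 0.3343 FPKM. The part of these other cell types in the Sox values was not tested, and in such bulk samples fewer cells of a type and less RNA per cell cannot be told apart.

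Across the 9 genes, the make-up of the Sox transcripts differed between the groups, while their summed level moved by less than 2-fold. The sum was 328.7 FPKM in ESCs and 225.5 in NCs, which is 1.457-fold lower. Its log2 ratio of -0.543 does not allow for the unequal column sums given below. Sox2 and Sox15 were lower in NCs, Sox1, Sox3, Sox4 and Sox11 were higher, Sox12 and Sox21 moved by less than 2-fold, and Sox14 was at the limit of detection. A gene was counted when the mean of its 2 FPKM values was at least 1 and the values differed at least 2-fold. Of the 12784 table rows that passed the first condition, 11.1% were at least 2-fold higher in NCs and 9.93% at least 2-fold lower. Among the Sox genes 8 of 9 passed it, of which 4 were higher and 2 lower. The median size of the log2 ratio was 1.852 over these 8 genes and 0.428 over all rows that passed, the signed medians being 0.787 and -0.036. The column sums of the table are unequal, 770592 FPKM in ESCs and 628679 in NCs. Rescaling both to the same total adds 0.294 to every log2 ratio and turns the split of all calls from 1419 higher and 1270 lower into 2093 higher and 865 lower, that is from 52.8% to 70.8% higher, while the calls of the Sox genes stay 4 higher and 2 lower.

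**Figure D2:**
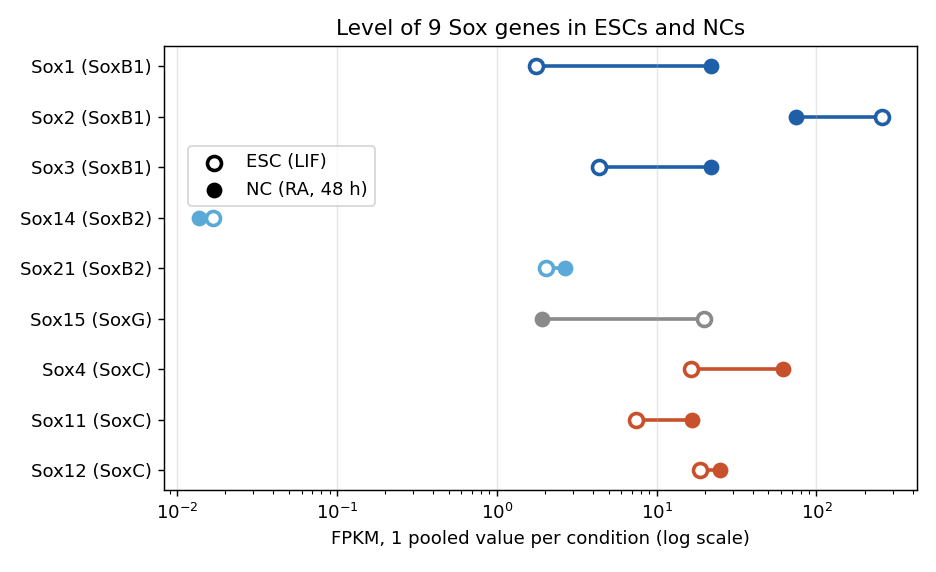
FPKM of the 9 Sox genes (log axis) in ESCs (open circles) and NCs (filled circles), 1 pooled value per condition and no error bars, with subgroups in colour. Sox2 and Sox15 lie to the left after RA, from 258.2 to 74.09 and from 19.72 to 1.905 FPKM, whereas Sox1, Sox3, Sox4 and Sox11 lie to the right.

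In ESCs the order of the levels was Sox2, Sox15, Sox12, Sox4, Sox11, Sox3, Sox21, Sox1 and Sox14. In NCs it was Sox2, Sox4, Sox12, Sox3, Sox1, Sox11, Sox21, Sox15 and Sox14. Sox2 held the first place and Sox12 the third in both conditions. Sox15 went from the second place to the eighth and Sox4 from the fourth to the second. Without replicate values, neighbours in these orders cannot be said to differ, and the NC levels of Sox1 and Sox3 were within 1.01-fold of each other.

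SoxB1 genes moved in opposite directions. Sox2 (chromosome 3, 34650405 to 34652461, plus strand, 1 exon) had the highest level of the 9 genes in both columns, with 258.2 FPKM in ESCs and 74.09 in NCs. This is 3.48-fold lower in NCs, a log2 ratio of -1.80, and 3.93% of all rows that passed had a lower ratio. Even so, the NC level of Sox2 exceeded that of 95% of all table rows. Its partner in ESCs, Pou5f1, went from 831.9 to 37.13 FPKM, 22.4-fold lower. The ratio of Sox2 to Pou5f1 was thus 0.31 in ESCs and 2.0 in NCs, and the order of the pair was inverted.

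Sox1 (chromosome 8, 12395295 to 12400126, plus strand, 1 exon) was at 1.77 FPKM in ESCs and 21.81 in NCs. Its ratio of 12.3-fold, a log2 ratio of 3.62, was the largest rise of the 9 genes, and 1.67% of all rows that passed had a higher ratio. Sox3 (X chromosome, 60891366 to 60893430, minus strand, 1 exon) was at 4.372 FPKM in ESCs and 21.92 in NCs, 5.01-fold higher, with 3.3% of all rows above it. The ESC level of Sox3 was 2.47-fold that of Sox1, and in NCs the levels were nearly equal. The ESC value of Sox1 corresponded to an estimated 595 to 686 fragments, depending on the step used, so that counting alone would leave its ratio between 11.3 and 13.4 (95% interval for counting error only, without any spread between replicates). The same kind of interval was 4.59 to 5.49 for Sox3.

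The 3 genes summed to 264.3 FPKM in ESCs and 117.8 in NCs, 2.243-fold lower. Under the rescaling to the same total the log2 ratio of this sum was -0.87, inside the 2-fold limit. Sox2 supplied 97.7% of the SoxB1 sum in ESCs and 62.9% in NCs. Sox1 went from 0.67% to 18.5% of it and Sox3 from 1.65% to 18.6%. Sox2 was 146-fold above Sox1 in ESCs and 3.4-fold above it in NCs, so that SoxB1 transcripts came nearly all from one gene in ESCs and from 3 genes in NCs.

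**Figure D3:**
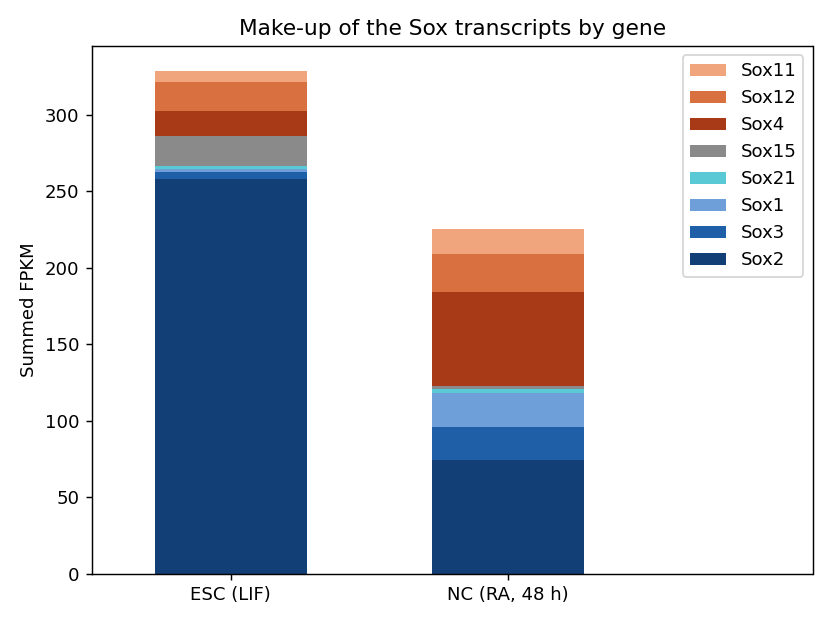
Stacked FPKM of the Sox genes in ESCs and NCs, with bars starting at 0 and 1 colour per gene (Sox14, at or under 0.01674 FPKM, is too low to be drawn). Sox2 fills 78.6% of the ESC bar and 32.9% of the NC bar, and Sox4 goes from 5.01% to 27.3%.

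SoxB2 genes were low. Sox21 (chromosome 14, 118233232 to 118237030, minus strand, 1 exon), a repressor that counteracts SoxB1 activity, was at 2.036 FPKM in ESCs and 2.676 in NCs. The difference of 1.31-fold was within the 2-fold limit, and 25.7% of all rows that passed had a higher ratio. Sox14 (chromosome 9, 99874106 to 99876170, minus strand, 1 exon), which is known from restricted neuron classes of the brain and spinal cord, was at 0.01674 FPKM in ESCs and 0.01362 in NCs. These values stand for an estimated 2.27 to 2.61 and 1.87 to 3.55 fragments. The ESC value is under the 0.0222 FPKM that 3 fragments would give. The NC value is under the corresponding 0.0218 FPKM by the larger of the NC steps but not by the smaller one. Counting alone leaves the ratio between 0.0716 and 13.6, so a difference was not detectable at this depth.

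Sox15 (chromosome 11, 69655314 to 69656727, plus strand) was the second most abundant of the 9 genes in ESCs, at 19.72 FPKM, and was at 1.905 FPKM in NCs. It was 10.35-fold lower, a log2 ratio of -3.37, and 1.08% of all rows that passed had a lower ratio. The NC value rests on an estimated 93.0 to 176 fragments, the fewest of the 8 genes that passed, and counting alone leaves the NC level between 0.0772 and 0.12 of the ESC level. That interval leaves out the overlap of Sox15 with Mpdu1 described below. Sox2 and Sox15 were both lower in NCs but by unequal amounts, so that the ratio of Sox2 to Sox15 was 13.1 in ESCs and 38.9 in NCs. Sox15 is also set apart by its gene structure, as its transcript has 2 exons and 861 bases whereas the longest transcript of each of the other 8 members is a single exon. Single-exon longest transcripts were found in 7.41% of the 19100 protein-coding gene names that matched the annotation.

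SoxC genes were all at higher values in NCs, with Sox12 within the 2-fold limit. Sox4 (chromosome 13, 28948919 to 28953713, minus strand, 1 exon) was at 16.48 FPKM in ESCs and 61.63 in NCs. It was 3.74-fold higher, with 4.5% of all rows above it, and reached the second highest NC level of the 9 genes. Sox2 was 15.7-fold above Sox4 in ESCs and 1.2-fold above it in NCs. Sox11 (chromosome 12, 27334264 to 27342574, minus strand, 1 exon), which acts with Sox4 in differentiating neurons, was at 7.424 FPKM in ESCs and 16.59 in NCs. This is 2.235-fold higher, close to the limit, and 9.19% of all rows lay above it. Sox12 (chromosome 2, 152393611 to 152398063, minus strand, 1 exon), the weakest activator of the subgroup, was at 18.68 FPKM in ESCs and 24.89 in NCs, 1.33-fold higher and within the limit, with 25% of all rows above it.

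SoxC genes together went from 42.58 to 103.1 FPKM, 2.422-fold higher. Sox12 and Sox4 were the leading SoxC genes of ESCs, with 43.9% and 38.7% of that sum. In NCs, Sox4 supplied 59.8% and Sox12 24.1%. The share of Sox11 was 17.4% in ESCs and 16.1% in NCs. Of the total of all 9 genes, SoxB1 made up 80.4% in ESCs and 52.2% in NCs, SoxC 13% and 45.7%, and Sox15 6.0% and 0.845%. SoxC thus came close to SoxB1 in NCs, at 103.1 against 117.8 FPKM.

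**Figure D4:**
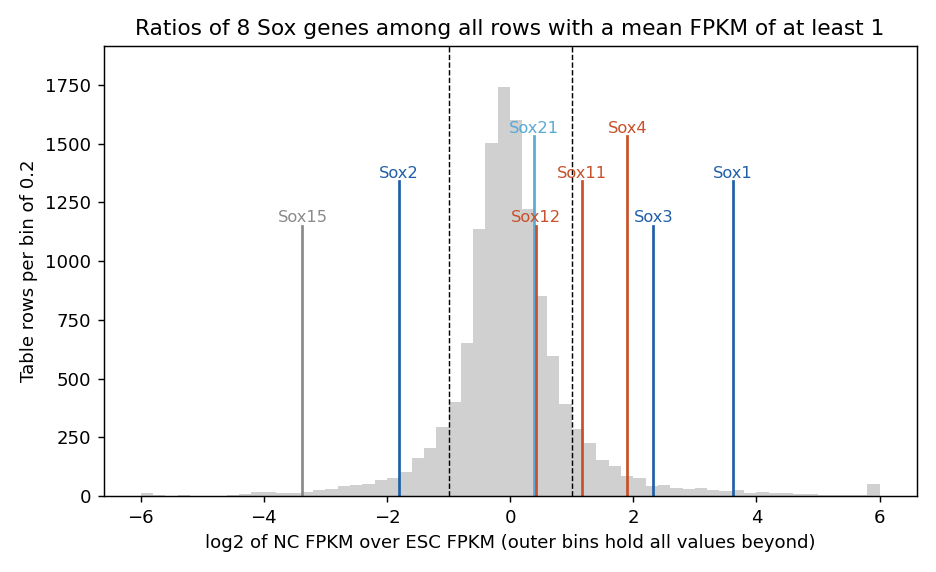
Histogram of the log2 ratio of NC over ESC FPKM for the 12784 rows with a mean FPKM of at least 1 (grey, bins of 0.2, with the outermost bins holding all values beyond them), with vertical lines for the 8 Sox genes that pass and dashed lines at the 2-fold limits. Sox15 at -3.37 and Sox1 at 3.62 lie far out on either side, Sox2, Sox3, Sox4 and Sox11 lie beyond the limits, and Sox12 and Sox21 lie between them.

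Some Sox loci overlap other genes, and the sources used here do not state whether the libraries keep the strand. Where they do not, fragments of a gene and of its antisense partner cannot be told apart. Sox4 shares 54.6% of its exon bases with Gm26735, a noncoding gene on the opposite strand, and Gm26735 is not a row of the table. Sox21 shares 18.8% of its exon bases with the noncoding Gm4675 on the opposite strand. Sox15 shares 3.6% with Mpdu1, which was at 66.95 FPKM in ESCs and 57.93 in NCs and thus far above Sox15 in NCs. The values of Sox4, Sox21 and Sox15 are uncertain for this reason. The share of bases does not bound the error, which also depends on the level of the overlapping gene. The size of this error was not tested. Sox1 and Sox2 lie inside the spans of the noncoding genes Sox1ot and Sox2ot on the same strand, with 0 exon bases in common, and Sox1 also shares 86 bases with the annotated miRNA gene Gm25239. None of the 4 noncoding transcripts of Sox loci looked up by name, Sox2ot, Sox1ot, Sox21os and Sox11os, is a row of the table, although Sox1ot is listed under its older name Gm5607, at 0.4134 FPKM in ESCs and 0.554 in NCs.

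Promoter sequence was compared because members moved in opposite directions. The windows run from 250 bases before to 50 bases after each RefSeq start (GRCm38.p6), and 8 of the 9 members had an entry. For some members this start differs from the gene coordinates given above. The Sox2 window ends at 34650044, before the gene start of 34650405. The Sox1 window, from 12395269 to 12395568, spans the gene start of 12395295. The promoters of Sox1 and Sox4, which were higher in NCs, and of Sox2 and Sox15, which were lower, are shown with every match to the searched motifs in capitals. The motifs, searched on both strands, were the octamer ATGCAAAT that POU factors bind, the Sox sites AACAAAG and AACAATG, the nuclear receptor half-site AGGTCA that RA receptors use, CCAAT and TATAAA. The windows are chr8:12395269-12395568 on the plus strand for Sox1, chr13:28953650-28953949 on the minus strand for Sox4, chr3:34649745-34650044 on the plus strand for Sox2 and chr11:69654787-69655086 on the plus strand for Sox15.
Sox1: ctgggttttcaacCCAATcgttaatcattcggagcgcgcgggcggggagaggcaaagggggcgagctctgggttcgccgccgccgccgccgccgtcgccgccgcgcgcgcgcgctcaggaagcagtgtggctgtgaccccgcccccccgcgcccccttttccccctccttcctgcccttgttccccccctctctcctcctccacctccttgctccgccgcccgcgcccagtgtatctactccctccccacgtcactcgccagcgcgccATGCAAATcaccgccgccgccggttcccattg
Sox4: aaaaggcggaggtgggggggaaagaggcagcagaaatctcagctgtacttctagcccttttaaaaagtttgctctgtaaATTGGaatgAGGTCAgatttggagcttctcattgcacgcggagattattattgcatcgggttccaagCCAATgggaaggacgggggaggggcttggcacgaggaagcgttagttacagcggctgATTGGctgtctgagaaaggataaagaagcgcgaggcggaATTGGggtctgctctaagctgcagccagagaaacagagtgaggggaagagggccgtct
Sox2: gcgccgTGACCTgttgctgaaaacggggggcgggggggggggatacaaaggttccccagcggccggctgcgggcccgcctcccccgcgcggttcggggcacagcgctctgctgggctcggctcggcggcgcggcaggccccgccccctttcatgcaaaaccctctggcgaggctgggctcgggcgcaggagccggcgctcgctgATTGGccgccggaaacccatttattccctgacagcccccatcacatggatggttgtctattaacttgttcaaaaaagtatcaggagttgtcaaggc
Sox15: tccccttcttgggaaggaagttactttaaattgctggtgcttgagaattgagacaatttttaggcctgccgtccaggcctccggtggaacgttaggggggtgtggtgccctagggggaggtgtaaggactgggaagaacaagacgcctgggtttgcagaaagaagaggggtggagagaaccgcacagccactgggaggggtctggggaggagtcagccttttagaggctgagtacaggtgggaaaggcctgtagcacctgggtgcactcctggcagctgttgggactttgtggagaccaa
The octamer occurred in Sox1, 18 bases after the RefSeq start, and in Sox12, and in 1.74% of all 32851 promoters. AGGTCA or its reverse occurred in Sox2 and Sox4, one lower and one higher in NCs, and in 16.3% of all promoters. CCAAT occurred in 6 of 8 members, with 4 matches in Sox4, and in 37.4% of all promoters. The Sox sites, present in 5.85% and 3.78% of all promoters, and TATAAA, present in 13.6%, were found in none of the 8 windows. Sox15 held no match. GC content was 70.7% in Sox1, 66.3% in Sox2, 56.0% in Sox15 and 52.0% in Sox4, against a median of 52.7% over all promoters. Sox1 had 37 CG dinucleotides, Sox2 had 27, Sox4 had 12 and Sox15 had 5, with a median of 7 over all promoters. These are matches of letters in one window and no evidence of binding.

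Partner and target genes of the Sox factors were read beside them. The POU partner Pou3f1, also called Oct6 and active in epiblast and glial cells, went from 12.69 to 2.115 FPKM, 6.0-fold lower, and the widely expressed Pou2f1, or Oct1, was at 10.57 and 10.95 FPKM. The neural partners Pou3f2, Pou3f3 and Pou3f4 stayed under a mean of 1 FPKM. Pou3f2 was at 0.04677 FPKM in ESCs and 0.2653 in NCs, Pou3f3 at 0.0909 and 1.073 FPKM, and Pou3f4 at 0.1655 and 1.163 FPKM. Of the 6 POU genes 3 passed the condition on the mean, with 2 lower and none higher at 2-fold. Over all rows that passed the shares were 9.93% lower and 11.1% higher. The 3 that did not pass, Pou3f2, Pou3f3 and Pou3f4, had higher values in NCs, by 5.67-fold, 11.8-fold and 7.03-fold from low ESC values. Sox2 was above each of the 6 genes in NCs.

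All 7 listed genes that Oct4 and Sox2 drive in ESCs were at least 2-fold lower in NCs, as were 9.93% of all rows that passed, with a median log2 ratio of -4.02 against -0.036 over all these rows. Pou5f1, Nanog and Zfp42 of this list are also among the 6 ESC markers, and Pou5f1 is among the POU genes above. Fgf4, a growth factor gene with a joint Oct4 and Sox2 enhancer site, went from 65.68 to 0.8177 FPKM. Utf1, a chromatin-bound factor of pluripotent cells, went from 300.6 to 17.3 FPKM. Nanog, a core pluripotency factor, went from 224.5 to 13.85 FPKM. Fbxo15, a gene of undifferentiated ESCs that is not needed for their identity, had the smallest ratio of the list, with 120.2 FPKM in ESCs and 46.87 in NCs. Sox2 itself, at 3.48-fold lower, moved less than 6 of these 7 genes.

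Neural progenitor genes that go with SoxB1 expression in the embryo were at least 2-fold higher for 4 of the 6 that passed, with none lower, against 11.1% and 9.93% of all rows. Pax6, a regulator of neural and eye progenitors, went from 3.642 to 65.22 FPKM, and Cdh2, the N-cadherin of neural epithelium, from 2.278 to 35.49 FPKM. Msi1, an RNA-binding protein of neural stem cells, went from 22.76 to 58.04 FPKM and the Notch target Hes5 from 0.5919 to 2.303 FPKM. Nes, the intermediate filament nestin, was at 12.86 and 18.31 FPKM and Ncam1, a neural adhesion molecule, at 1.484 and 2.609 FPKM, both within the limit. Fabp7, a radial glia gene, was at 1.113 and 0.4212 FPKM and did not pass. The median log2 ratio of the 6 genes was 1.655, against -0.036 over all rows that passed.

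Target genes of SoxC proteins did not move one way. Tubb3, the neuronal tubulin, went from 33.44 to 7.544 FPKM and was lower. Map2, a dendrite protein, was at 3.176 and 2.354 FPKM, and Tead2, a Hippo pathway factor, at 85.49 and 170.3 FPKM, which is 1.99-fold higher and just inside the limit. Dcx, of migrating neurons, was at 0.01398 and 0.3343 FPKM and did not pass. Of the 4 genes 3 passed, with 1 lower and none higher, against 9.93% and 11.1% of all rows that passed. Tubb3, Map2 and Dcx are also among the 8 neuron markers above, so these lists are not separate results.

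**Figure D5:**
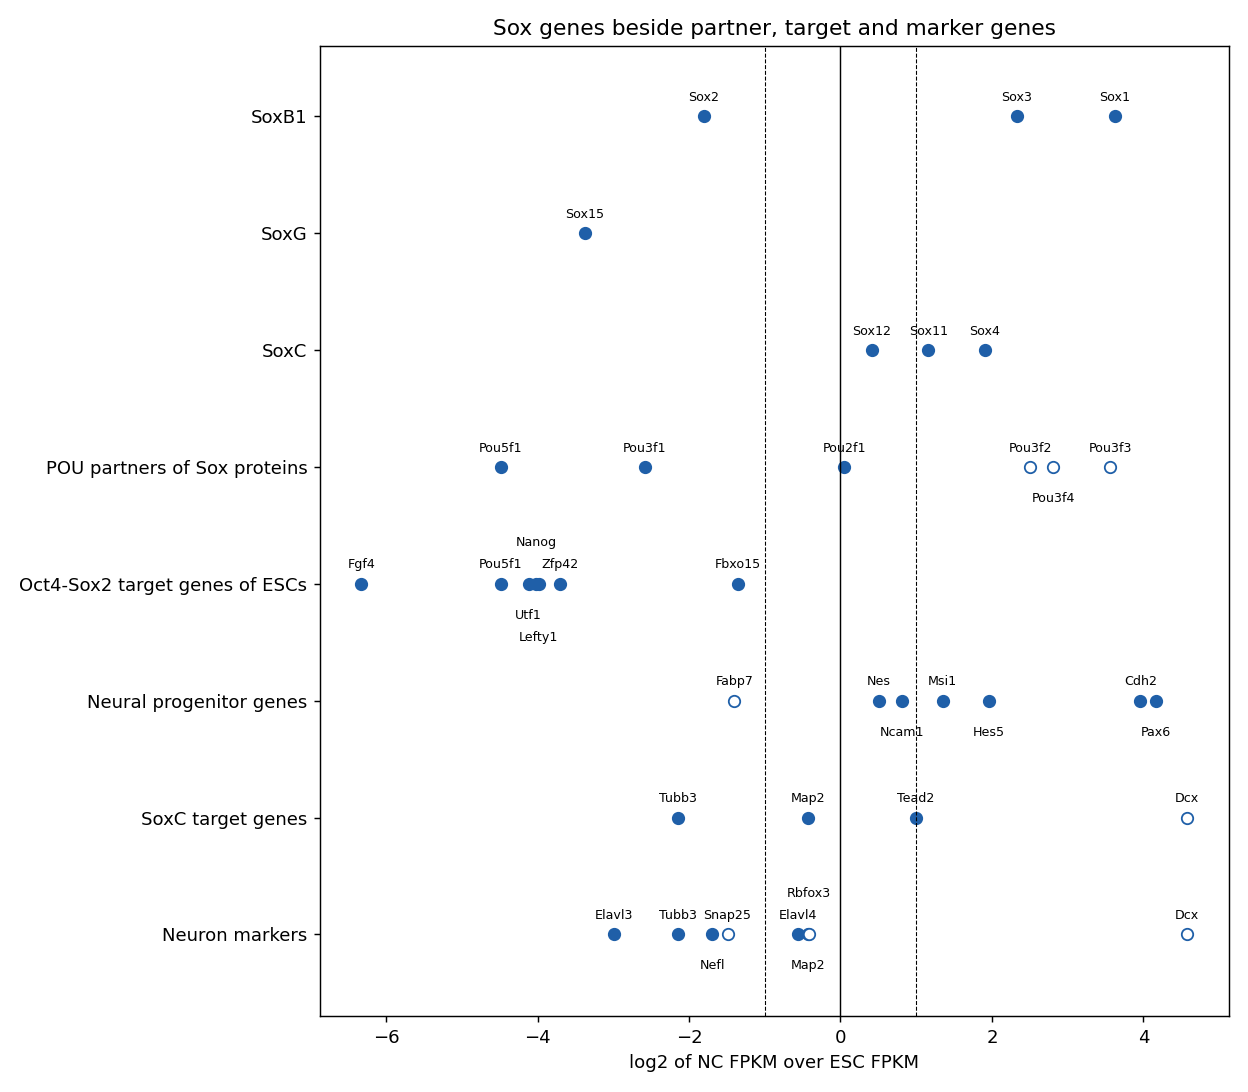
Log2 ratio of NC over ESC FPKM (x axis) for the SoxB1, SoxG and SoxC genes and for their partner, target and marker genes, 1 row per list and 1 circle per gene, filled where the mean FPKM is at least 1 and open where it is lower. Dashed lines mark the 2-fold limits, outside of which lie all 7 Oct4-Sox2 target genes on the left and 4 filled neural progenitor genes on the right.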

How the data were processed

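RNA from 3 ESC and 3 NC samples (E14Tg2a) was made into TruSeq libraries and sequenced by the study. According to its methods and the processing notes, reads were aligned to mm10 with TopHat2 (version 2.0.8), which runs Bowtie2 (here 2.1.0), and transcripts were assembled, merged and compared with Cufflinks 2.0.2 and its tools Cuffmerge and Cuffdiff. The authors deposited 1 table with an FPKM per gene and condition, pooled over replicates. The NC column is headed "FPK" and was taken as FPKM. Its columns of fold change, test statistic, p-value, q-value and significance hold the authors' own comparison and were not used.

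Ratios of NC to ESC were computed with no pseudocount (Python 3.11.15, pandas 2.3.3, numpy 2.4.6, scipy 1.17.1, figures with matplotlib 3.10.9). A row was counted when its mean FPKM was at least 1 and its values differed at least 2-fold. With 1 pooled value per condition no test was made. Fragment numbers were read from the steps, the fullest bins of the lowest values in a lower and a higher fixed range. Fragments of 200 bases and the longest GENCODE transcript were assumed. This reading was chosen after the values were seen, and the fragment numbers cover counting error only. The counting intervals used the larger step of each column, and so the smaller fragment numbers. The ratio and calls were checked with known folds planted on the real ESC values, which tests the computation only. All planted rows passed the filter, so the filter was not tested. The Sox genes and all gene lists were chosen with earlier results of these data known. All 9 members are named, with genes of the lists and, for the member of each subgroup with the highest mean of both FPKM values, the 3 genes nearest on log2(FPKM + 1). The alternatives were pseudocounts of 0.1 and 1, other filters and fold limits, 2 scalings and summing of rows with one name.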

Additional observations from a re-analysis of the deposited data

How the results depend on the processing

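No paired analysis was possible because the table holds no values of single replicates, and for the same reason leaving out replicates could not be run. The Sox calls of 4 higher and 2 lower held under both pseudocounts, both scalings and a 1.5-fold limit. Both other filters on low values and summed rows of one name left them unchanged but could not have altered them. The lowest mean FPKM of the called genes was 10.81, for Sox15, and Sox14, admitted with no filter, differed by 1.23-fold. Each of the 9 genes has 1 row. At a 4-fold limit 2 genes were higher (Sox1 and Sox3) and 1 lower (Sox15). Over all rows the numbers higher and lower were 2947 and 2403 with no filter, 634 and 734 at a mean FPKM of at least 5, 2471 and 2400 at a 1.5-fold limit, and 537 and 426 at a 4-fold limit, which follows from how many rows each limit admits. No log2 ratio of the 9 Sox genes or of the SoxB1 and SoxC sums changed sign under the 2 scalings. A pseudocount or the summing of rows could not have changed a sign here. Over the pseudocounts and scalings the log2 ratio ranged from 3.04 to 3.92 for Sox1, from -1.80 to -1.51 for Sox2, from -3.37 to -2.84 for Sox15 and from 1.06 to 1.45 for Sox11. The absence of replicate values limits every ratio, and the depth limits Sox14.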

Other observations

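The remaining Sox genes were also read. Of 11 genes, 10 had a value above 0 in both columns and a higher one in NCs, by as little as 0.2356 against 0.2497 FPKM for Sox30. Of the 7 that passed a mean FPKM of 1, 6 were at least 2-fold higher and none lower, against 11.1% and 9.93% of all rows that passed. Rescaling the columns to the same total, which makes 70.8% of all calls higher ones, moves these ratios up as well. Sox6, of the SoxD subgroup, went from 0.1503 to 1.992 FPKM, and Sox9, a SoxE factor of neural stem cells and cartilage, from 0.239 to 3.116 FPKM. Sox17, a factor of endoderm, went from 0.8609 to 3.996 FPKM. Sox13, of SoxD, had the highest level of these genes in both columns, 11.34 FPKM in ESCs and 27.55 in NCs. Sry was listed at 0 in ESCs. Its NC value of 0.007229 FPKM is about the value of 1 fragment per kilobase by the smaller NC step, so no direction is given. Sox2 and Sox15 were therefore the only Sox genes in the table at least 2-fold lower in NCs by this limit, while Sox14, with an estimated 1.87 to 3.55 fragments in either column, is given no direction.

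The genes nearest to a member in both levels were found by the distance over log2(FPKM + 1) in the 2 conditions, which says nothing of shared function or control. Nearest to Sox2 were DQ267102 at 288.0 and 72.28 FPKM, Bst2 at 243.7 and 83.89 FPKM, and Ubald2 at 223.5 and 72.43 FPKM. Nearest to Sox4 were Rec8 at 16.97 and 59.81 FPKM, Phc2 at 18.86 and 61.55 FPKM, and Igfbp4 at 15.08 and 55.41 FPKM. Nearest to Sox15 were Cbr3 at 21.62 and 2.187 FPKM, Lrrc34 at 18.69 and 1.561 FPKM, and D7Ertd143e at 23.66 and 1.7 FPKM. Nearest to Sox21 were Mthfd2l at 2.042 and 2.683 FPKM, Tigd3 at 2.026 and 2.748 FPKM, and 6330408A02Rik at 2.04 and 2.771 FPKM.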
